A study of Mus musculus with 14 samples.

Results

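Transcripts of 10 genes of the Bcl2 family were followed in embryonic mouse skin. The genes were chosen by name, and each symbol matched 1 of the 26252 Ensembl genes in the deposited count table. They are the survival genes Bcl2, Bcl2l1 and Mcl1, the pore-forming effector genes Bax and Bak1, and the BH3-only genes Bcl2l11, Bmf, Bbc3, Bid and Pmaip1. RNA came from the epithelium of dorsal skin of C57BL/6JOlaHsd wild-type embryos at E14.5, when hair placodes lie within the interfollicular epithelium (IFE). Cells were sorted with an antibody against MAdCAM-1, an adhesion molecule on placode cells, into a placode-enriched positive fraction and an IFE negative fraction. There were 7 libraries of each fraction, which formed 7 pairs by their title codes, and each library pooled the epithelium of 3 to 4 littermates. No gene was altered and no agent was given in either group.

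Bcl2 family proteins decide whether the outer mitochondrial membrane stays closed. BAX and BAK open it and release cytochrome c, which starts the caspases, while BCL2, BCL-XL (from Bcl2l1) and MCL1 hold BAX and BAK back. BH3-only proteins such as BIM (from Bcl2l11), PUMA (Bbc3), NOXA (Pmaip1), BMF and BID carry stress signals to these partners, and NOXA binds MCL1 by preference. In skin the family is known for the loss of hair pigment cells in mice without Bcl2 and for the death of follicle cells during regression of the hair cycle. Much of its control lies in protein binding and turnover, which RNA counts do not measure.

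Library totals ran from 23.8 to 49.5 megacounts (23.8 to 49.5 in placode-enriched and 23.8 to 39.5 in IFE libraries). All 10 placode markers were higher in the placode-enriched fraction, among them Shh at 105 ± 23.4 CPM (counts scaled to a common library size of 1 megacount), against 2.02 ± 0.767 CPM in IFE libraries (SD, 7 libraries each; so throughout). The IFE fraction also held more RNA of other layers and cells. The summed level of 10 suprabasal markers was at most 463 CPM in a placode-enriched library and at least 2876 CPM in an IFE library. The sum of 9 melanoblast markers was 13.3 CPM in the median placode-enriched library and 160 CPM in the median IFE library, with no overlap. In such bulk samples, fewer cells of a type and less RNA per cell cannot be told apart.

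All 10 members were abundant enough to be tested. Bcl2 and Bcl2l11 were each about 3 times as high in placode-enriched as in IFE cells, Bmf was slightly higher, and Pmaip1 and Bid were lower. Mcl1, Bcl2l1, Bax, Bak1 and Bbc3 did not pass the test. At an adjusted p under 0.05, 3 members were higher and 2 lower, or 50% of the 10, where 31.1% of all 15382 genes tested differed (15.5% higher, 15.6% lower; edgeR quasi-likelihood test blocked on the pair, Benjamini-Hochberg over all genes). The ranges of the fractions did not overlap for 3 members, Bcl2, Bcl2l11 and Pmaip1, and for 14.8% of all genes. The difference had the same sign in 7 of 7 pairs for 4 members, these and Bid, and for 26.5% of all genes. The median log2 fold change was 0.11 over the members and -0.02 over all genes.

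**Figure D1:**
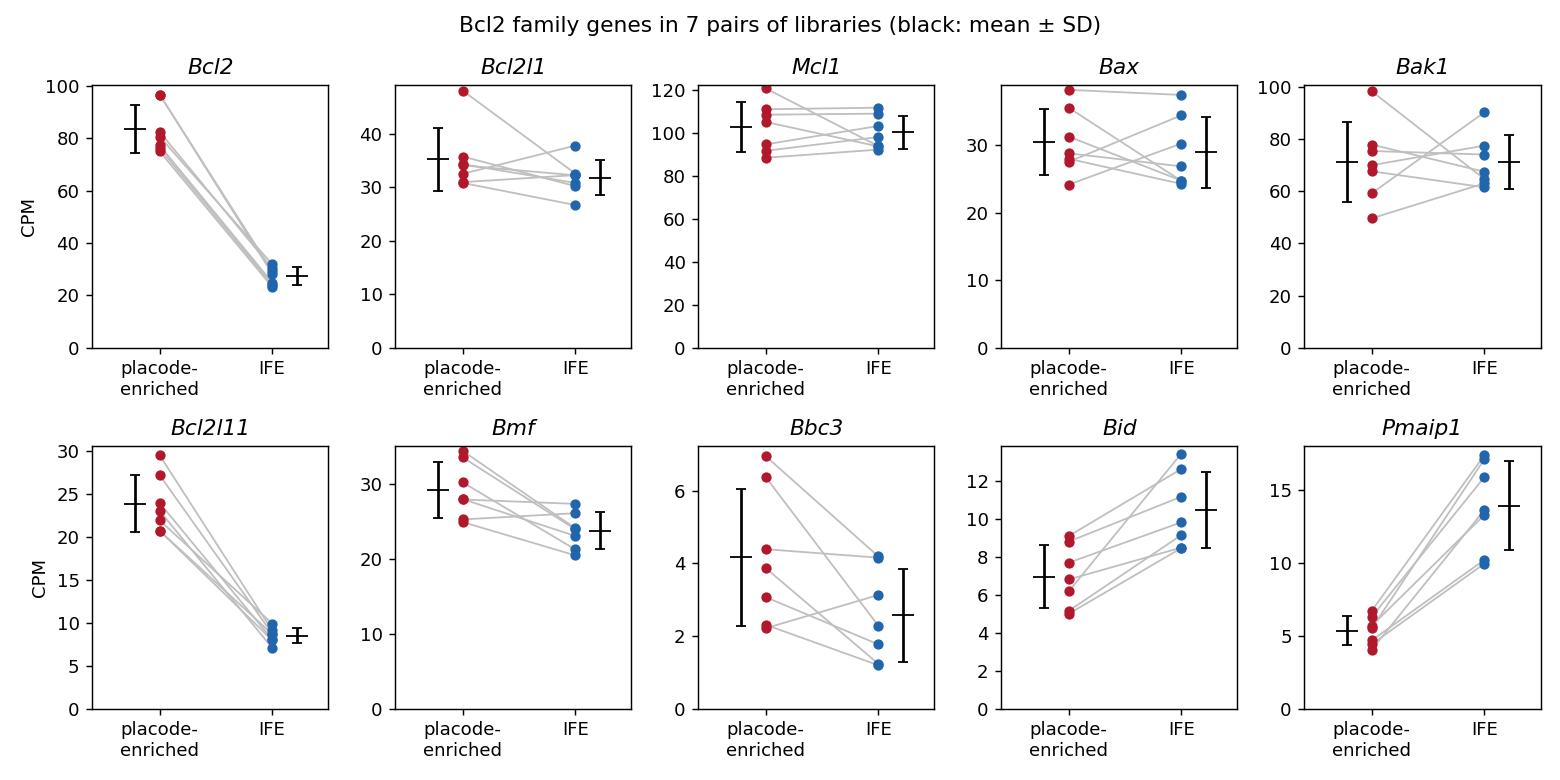
CPM of the 10 members in each library, placode-enriched (red) left of IFE (blue), with grey lines joining the libraries of a pair and black marks giving the mean ± SD (n = 7). Bcl2, Bcl2l11 and Pmaip1 separate without overlap, and the lines of Mcl1, Bax and Bak1 cross.

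Bcl2, the first known member of the family and a guard of cell survival, differed most. Its gene lies on chromosome 1, 106538178 to 106714274, minus strand (GRCm38), as 2 exon blocks with 9157 bases of annotated exon. It stood at 75.0 CPM in the lowest, 80.6 in the median and 96.7 in the highest placode-enriched library, against 23.3, 28.3 and 31.9 CPM in IFE libraries. Each placode-enriched library lay more than 2 times above the highest IFE library. The log2 fold change was 1.61 with an approximate SE of 0.08 (edgeR adjusted p = 4.56e-09), a 3.05-fold difference, and the 7 pairs gave 1.34 to 1.77. It ranked 559 from the top of 15382 genes by fold change. Counts per gene do not separate the splice forms of Bcl2.

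Bcl2l11 encodes BIM, a BH3-only protein that binds all of the main survival proteins and can also activate BAX. Its gene lies on chromosome 2, 128126038 to 128162547, plus strand. It stood at 20.7 CPM in the lowest, 23.0 in the median and 29.5 in the highest placode-enriched library, against 7.07, 8.67 and 9.90 CPM in IFE libraries. The lowest placode-enriched library was thus still above 2 times the highest IFE library. The log2 fold change was 1.48 ± 0.11 (edgeR adjusted p = 1.92e-07), a 2.79-fold difference, and was above 1 in 7 of 7 pairs. A killer gene of the family and its best known guard were thus higher in the same fraction. The ratio of Bcl2 to Bcl2l11 in CPM per kilobase of exon was 3.13 ± 0.569 in placode-enriched and 2.88 ± 0.574 in IFE libraries (SD, n = 7 each). Its ranges overlapped, from 2.27 to 3.68 in placode-enriched and from 2.21 to 3.63 in IFE libraries, although 6 of 7 pairs were higher on the placode side. Immune, fibroblast and endothelial marker sums were higher along with Bcl2 and Bcl2l11 in 7 of 7 pairs, and their part in these differences was not tested. Splice forms of Bcl2l11, which differ in how strongly they kill, are not separated by these counts.

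Bcl2 and Bcl2l11 were both higher in the placode-enriched fraction, and whether they vary together within a fraction was not tested. The 250 bases before their first annotated RefSeq start are shown 5′ to 3′ on the strand of the gene (GRCm38.p6, chr1:106714291-106714540, minus strand, for Bcl2, and chr2:128125788-128126037, plus strand, for the first of 2 Bcl2l11 starts). Capitals mark matches to short motifs.
Bcl2: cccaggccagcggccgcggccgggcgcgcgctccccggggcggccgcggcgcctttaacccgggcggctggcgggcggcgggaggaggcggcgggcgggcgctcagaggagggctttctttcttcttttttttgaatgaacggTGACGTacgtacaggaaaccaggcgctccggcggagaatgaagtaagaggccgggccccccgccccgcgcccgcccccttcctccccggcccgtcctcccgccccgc
Bcl2l11: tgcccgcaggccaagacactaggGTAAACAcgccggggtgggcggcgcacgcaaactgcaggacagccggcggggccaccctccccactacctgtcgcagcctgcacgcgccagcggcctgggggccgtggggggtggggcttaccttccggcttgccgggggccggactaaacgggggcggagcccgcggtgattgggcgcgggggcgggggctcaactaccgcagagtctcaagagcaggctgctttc

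The motifs were searched on both strands and were chosen after these sequences had been seen. They were TGACGT, the core that CREB family factors read, GTAAACA for forkhead factors of the FoxO group, GACCACCCA for GLI factors of the Hedgehog pathway, and the kappaB motif of NF-kB. None of the motifs overlaps another in these windows. The Bcl2 window held TGACGT, as did 6.47% of 32851 windows of that length. The Bcl2l11 window held GTAAACA, as did 3.17%, and the window of the second Bcl2l11 start did not. Among the other members searched, 1 of 3 Bbc3 windows held GTAAACA too, and Bbc3 did not pass the test. Neither of the windows shown held the GLI letters, found in 0.225% of windows, or the kappaB motif, found in 0.356%. A match of letters is a description and not a binding site, and a missing match concerns only this stretch.

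The other survival genes did not pass. Mcl1 encodes a short-lived guard that many epithelial cells need, and lies on chromosome 3, 95658788 to 95663176, plus strand. It stood at 88.4 CPM in the lowest, 105 in the median and 121 in the highest placode-enriched library, against 92.2, 98.0 and 112 CPM in IFE libraries. Those ranges overlap almost fully, and the log2 fold change of 0.03 ± 0.07 had an approximate 95% interval of -0.11 to 0.18 (edgeR adjusted p = 0.789). Bcl2l1, the gene of BCL-XL on chromosome 2, 152780668 to 152831728, minus strand, stood at 30.8, 34.1 and 48.1 CPM (lowest, median, highest) in the placode-enriched fraction, against 26.7, 32.3 and 37.8 CPM in the IFE fraction. A single placode-enriched library, replicate 5, made the top of that range, and the other 6 lay between 30.8 and 35.8 CPM. The log2 fold change was 0.14 ± 0.09 with an interval of -0.05 to 0.32 (edgeR adjusted p = 0.311). Both intervals lie below that of Bcl2, 1.46 to 1.76.

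The effector genes Bax and Bak1, whose proteins form the membrane pore, did not pass the test. Bax (chromosome 7, 45461697 to 45466898, minus strand) stood at 24.2, 28.8 and 38.2 CPM (lowest, median, highest) in the placode-enriched fraction, against 24.3, 26.9 and 37.5 CPM in the IFE fraction. Its log2 fold change was 0.08 ± 0.11, with an interval of -0.14 to 0.29 (edgeR adjusted p = 0.648). Bak1 (chromosome 17, 27019810 to 27029009, minus strand) stood at 49.6, 69.9 and 98.2 CPM in the placode-enriched fraction, against 61.5, 67.4 and 90.1 CPM in the IFE fraction. Its log2 fold change was -0.02 ± 0.12, with an interval of -0.26 to 0.22 (edgeR adjusted p = 0.936), and 4 pairs were higher and 3 lower. Bak1 shares 437 exon bases with Ggnbp1 on the opposite strand, and Bax shares 192 with Gm45808 on the same strand. Reads of such stretches may be lost or mixed.

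Of the BH3-only genes, Pmaip1 and Bid were lower in the placode-enriched cells. Pmaip1 encodes NOXA, which is known for neutralising MCL1, and lies on chromosome 18, 66458533 to 66465565, plus strand. It stood at 4.04 CPM in the lowest, 5.50 in the median and 6.71 in the highest placode-enriched library, against 9.93, 13.6 and 17.4 CPM in IFE libraries. Every placode-enriched library lay below every IFE library. The log2 fold change was -1.37 ± 0.13 (edgeR adjusted p = 2.03e-06), 2.59-fold lower, and the pairs gave -1.74 to -1.11. Marker sums of suprabasal, basal, periderm, melanoblast, and Schwann and neuron cells were also lower in 7 of 7 pairs. Their part in the Pmaip1 difference was not tested. Single markers were mixed in 2 of these lists, with 2 higher and 5 lower of 7 tested for periderm. For basal epidermis, 2 were higher and 3 lower of 6 tested. Within a fraction, the libraries with 27-7 title codes and the others had ranges that did not overlap for 1 of the 10 members in the placode-enriched fraction, Pmaip1, where 9.19% of all genes separated. In the IFE fraction 0 of 10 members and 6.49% of all genes separated, so both counts are near those of all genes.

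Bid links death receptors to mitochondria, because caspase-8 cuts its protein into an active form. It lies on chromosome 6, 120891930 to 120916853, minus strand. It stood at 5.01 CPM in the lowest, 6.82 in the median and 9.12 in the highest placode-enriched library, against 8.48, 9.84 and 13.5 CPM in IFE libraries. The ranges overlapped slightly, yet Bid was lower in 7 of 7 pairs, and the log2 fold change was -0.60 ± 0.14 (edgeR adjusted p = 0.00468). The call was lost in the 3 pairs with a title code starting 27-7 (-0.75, edgeR adjusted p = 0.0714) and in the 4 other pairs (-0.48, edgeR adjusted p = 0.0877), each alone. Of the 3550 annotated exon bases of Bid, 628 are shared with Bcl2l13 on the opposite strand. Bcl2l13 stood at 86.7 ± 7.82 CPM in the placode-enriched fraction, against 91.5 ± 5.46 CPM in the IFE fraction, and its own log2 fold change was -0.08 ± 0.07 (edgeR adjusted p = 0.449). The marker sums named beside Pmaip1 moved with Bid as well, and their part was not tested.

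Bmf, whose protein is held at myosin motors until it is freed, was slightly higher. It lies on chromosome 2, 118528757 to 118549687, minus strand. It stood at 24.9 CPM in the lowest, 28.0 in the median and 34.4 in the highest placode-enriched library, against 20.5, 23.9 and 27.3 CPM in IFE libraries. The ranges overlapped, 6 of 7 pairs were higher, and the log2 fold change was 0.29 ± 0.09 (edgeR adjusted p = 0.0316). Leaving out replicate 1, 2, 5, 6 or 7 ended the call (edgeR adjusted p of 0.0921, 0.0869, 0.0812, 0.0692 and 0.0604).

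Bbc3 encodes PUMA, a BH3-only protein that p53 induces, and had the fewest counts of the members. It lies on chromosome 7, 16308393 to 16318205, plus strand. It stood at 2.21 CPM in the lowest, 3.87 in the median and 6.95 in the highest placode-enriched library, against 1.19, 2.28 and 4.19 CPM in IFE libraries. The spread was wide, with a coefficient of variation of 45.1% in placode-enriched and 49.9% in IFE libraries, and the libraries held 73 to 225 counts of it in the placode-enriched fraction and 43 to 124 in the IFE fraction. The log2 fold change of 0.74 ± 0.27 narrowly missed the threshold (edgeR adjusted p = 0.0517), with 6 pairs higher and 1 lower. It passed with DESeq2 (adjusted p = 0.0286), with limma-voom (0.0486), with library size only (0.0365) and with a filter of at least 1 CPM in 7 libraries (0.0487). It also passed without replicate 3 (0.0353) or 7 (0.0145), which made 6 of 16 alternatives. It did not pass without the pair block (edgeR adjusted p = 0.122), in the 27-7 pairs alone (0.415) or in the other pairs alone (0.0941). Nor did it pass without replicate 1, 2, 4, 5 or 6 (edgeR adjusted p of 0.0918 to 0.156).

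**Figure D2:**
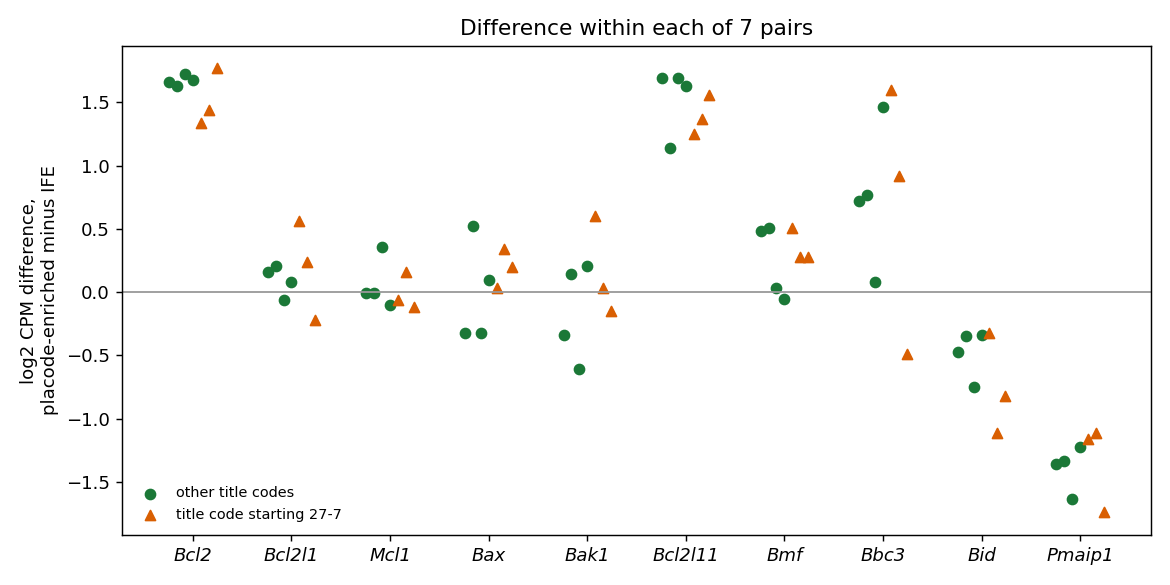
Log2 CPM difference, placode-enriched minus IFE, in each of the 7 pairs for the 10 members, with triangles for pairs whose title code starts with 27-7 and circles for the others. Bcl2 and Bcl2l11 lie above 1 and Pmaip1 below -1 in all 7 pairs, Bid is below 0 in all 7, and Bbc3 runs from -0.49 to 1.60. Over all genes tested, 26.5% had the same sign in 7 of 7 pairs.

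Levels were then set side by side per length, as CPM per kilobase of annotated exon, which compares genes within a fraction. Mcl1 and Bak1 led in both fractions. Mcl1 stood at 30.1 ± 3.42 in placode-enriched and 29.3 ± 2.29 in IFE libraries, and Bak1 at 29.5 ± 6.38 in placode-enriched and 29.6 ± 4.24 in IFE libraries, so these neighbours did not differ beyond their spread in either fraction. Bax followed at 19.4 ± 3.10 and 18.4 ± 3.33.

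Bcl2 held different places in the order of the fractions. At 9.13 ± 1.02 it was the fourth of the 10 genes in placode-enriched cells, above Bcl2l1 (7.68 ± 1.30) in 6 of 7 libraries. At 3.00 ± 0.364 it was the seventh in IFE cells, below Bcl2l1 (6.94 ± 0.726) in 7 of 7 libraries and level with Bid (2.95 ± 0.566). Pmaip1 was the lowest member of the placode-enriched fraction at 1.95 ± 0.363, level with Bid and Bbc3, and the fifth member of the IFE fraction at 5.09 ± 1.12, level with Bmf. Bcl2l11 was the seventh in placode-enriched cells at 2.97 ± 0.416 and the lowest in IFE cells at 1.06 ± 0.113, where it overlapped Bbc3.

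The 3 survival genes together stood at 46.9 ± 3.17 CPM per kilobase in placode-enriched and 39.3 ± 2.01 in IFE libraries, higher in 7 of 7 pairs. Within this sum Bcl2 stood at 9.13 in placode-enriched and 3.00 in IFE libraries, and Mcl1 and Bcl2l1 did not pass the test. The 2 effector genes stood at 48.9 ± 8.89 in placode-enriched and 47.9 ± 4.81 in IFE libraries. The 5 BH3-only genes summed to 14.4 ± 2.20 in placode-enriched and 14.8 ± 1.88 in IFE libraries, with 3 pairs higher. Higher Bcl2l11 and lower Pmaip1 thus stood within a sum whose ranges overlapped (11.9 to 18.4 in placode-enriched, 12.3 to 17.6 in IFE libraries). Transcript sums do not give amounts of protein.

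**Figure D3:**
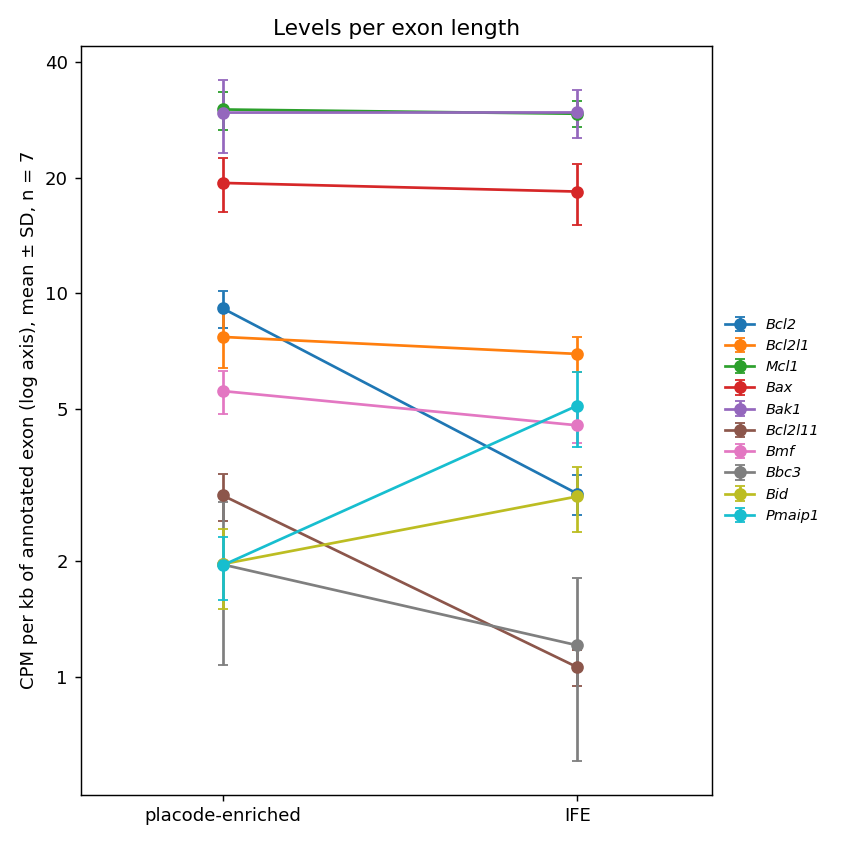
Mean level of each member in CPM per kilobase of annotated exon on a log axis, placode-enriched left of IFE, with SD bars (n = 7). Mcl1, Bak1 and Bax stay on top and nearly level, while the lines of Bcl2 and Pmaip1 cross.

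The remaining family went both ways. Of 15 further family genes listed, 12 were in the table and 10 were tested, of which 2 were higher, 2 lower and 6 did not pass (median log2 fold change 0.06). Bcl2l12 was higher at 36.9 ± 7.03 CPM in the placode-enriched fraction, against 27.1 ± 4.55 CPM in the IFE fraction (0.44 ± 0.11; edgeR adjusted p = 0.00673). Bnip3, which marks mitochondria for removal, was higher by 0.48 ± 0.12. Bcl2l14 was lower (-0.91 ± 0.26) and so was Bcl2l15 (-3.58 ± 0.70), both at under 5 CPM in every library. Bcl2l2, the gene of the survival protein BCL-W, stood at 13.5 ± 1.05 CPM in the placode-enriched fraction, against 13.1 ± 1.17 CPM in the IFE fraction (edgeR adjusted p = 0.807). The BH3-only gene Bad stood at 35.5 ± 6.44 CPM in the placode-enriched fraction, against 45.3 ± 7.07 CPM in the IFE fraction (edgeR adjusted p = 0.0601). Bik and Hrk, also BH3-only genes, averaged under 1 CPM in both fractions.

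**Figure D4:**
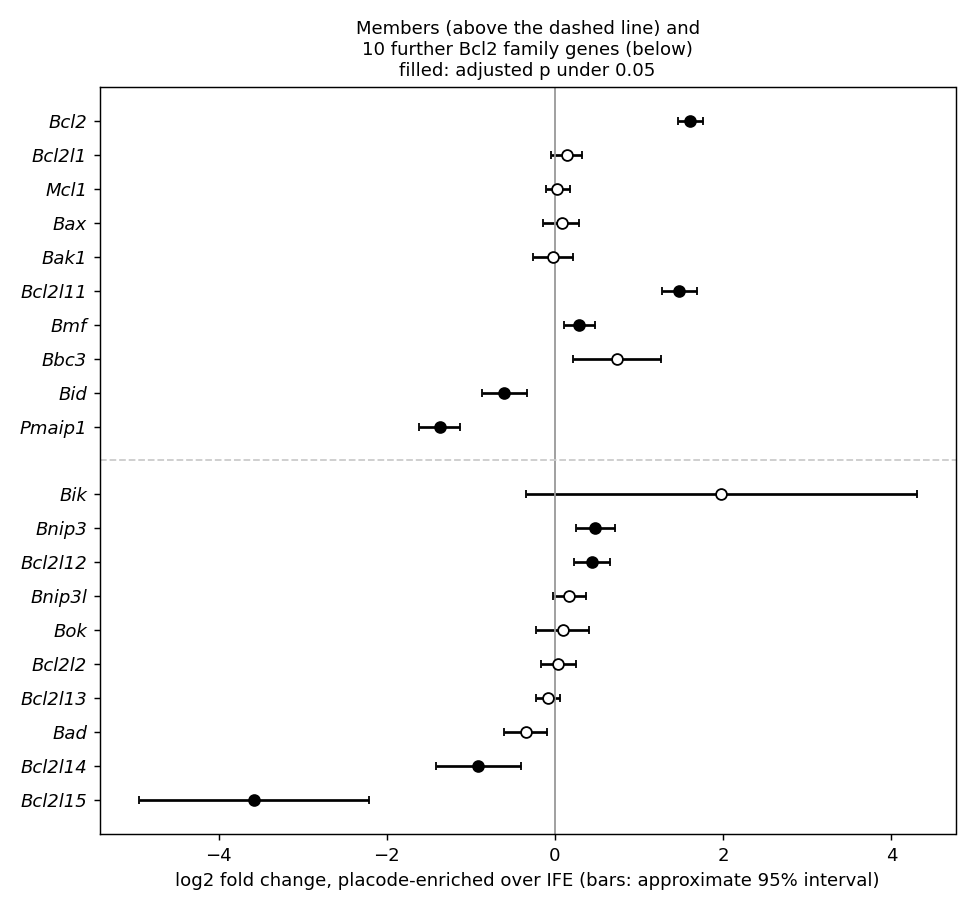
Log2 fold change, placode-enriched over IFE, with approximate 95% intervals for the 10 members (above the dashed line) and 10 further family genes, filled where the adjusted p was under 0.05. Bcl2 (1.61) and Bcl2l11 (1.48) stand at the right and Pmaip1 (-1.37) at the left among the members, and Bik has the widest interval.

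Downstream of the membrane, changes were mostly within a factor of 2. Among 10 genes of mitochondrial release and the apoptosome, 2 were higher, 4 lower and 4 did not pass (median -0.18). Cycs, the gene of cytochrome c, was lower (-0.56 ± 0.09), and so was Vdac1, a channel of the outer membrane (-0.49 ± 0.07), while its relative Vdac3 was higher (0.78 ± 0.11). Htra2, a protease that leaves the mitochondrion with cytochrome c, was lower (-0.45 ± 0.11). Apaf1, which assembles with cytochrome c, stood at 26.3 ± 4.45 CPM in the placode-enriched fraction, against 21.2 ± 3.82 CPM in the IFE fraction (edgeR adjusted p = 0.0856). Of 7 caspase and nuclease genes, 2 were higher and 2 lower (median 0.22): Casp6 (0.45 ± 0.07) and Casp2 (0.27 ± 0.09) were higher, and Casp8 (-0.33 ± 0.09) and Dffa (-0.36 ± 0.08) lower. Without replicate 2 only 2 of these passed. Among 5 tested inhibitor of apoptosis genes, 1 passed, Birc3, an NF-kB target whose protein checks death receptor signals, at 34.1 ± 4.26 CPM in the placode-enriched fraction, against 16.0 ± 1.30 CPM in the IFE fraction (1.09 ± 0.09; edgeR adjusted p = 8.32e-07).

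Of 8 tested death receptor and adaptor genes, 1 was higher and 3 lower (median -0.16). The adaptor Fadd (-0.59 ± 0.12) and the kinase Ripk1 (-0.39 ± 0.10) were lower, as was the receptor Tnfrsf1a (-0.26 ± 0.09), which was lower in 5 of 7 pairs. Cflar, which blocks caspase-8, was higher (0.32 ± 0.08). Lower Casp8, Fadd and Bid stood in the same libraries as higher Cflar and Birc3, and also as higher Casp6 and Casp2. Ripk3 (0.57 ± 0.21), Tnfrsf10b (0.22 ± 0.10), Xiap and Birc2 did not pass. These genes were set side by side after their values were seen, and a joint effect was not tested. Of 11 partners and turnover factors of family proteins, 1 was higher, Bag3 (0.40 ± 0.11), and 4 lower, all by 0.24 or less on the log2 scale, and this count ran from 1 to 5 over the alternatives. Ywhab (-0.22 ± 0.07) and Ywhaz (-0.20 ± 0.06) encode 14-3-3 proteins that hold BAD in the cytosol, and Dynll2 (-0.24 ± 0.09) encodes the light chain that tethers BMF.

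Bax, Bbc3 and Pmaip1 are known p53 targets. Trp53 itself was higher, at 507 ± 97.9 CPM in the placode-enriched fraction, against 326 ± 41.8 CPM in the IFE fraction (0.62 ± 0.08; edgeR adjusted p = 4.02e-05). The list of Trp53 with its regulators and targets counted 19 tested genes, 4 of them higher and 6 lower (median -0.12). The cell cycle inhibitor Cdkn1a was lower, at 7.26 ± 1.58 CPM in the placode-enriched fraction, against 37.3 ± 8.23 CPM in the IFE fraction, and the desmosome gene Perp was lower too (-1.35 ± 0.07), while Btg2 was higher (0.64 ± 0.10). Mdm2 stood at 44.2 ± 5.82 CPM in the placode-enriched fraction, against 39.9 ± 5.84 CPM in the IFE fraction (edgeR adjusted p = 0.400). Among 9 tested stress factors that act on BH3-only genes, 2 were higher and 1 lower (median -0.02). The p53 relatives Trp73 (1.56 ± 0.10) and Trp63 (0.48 ± 0.06) were higher, and Atf4, a factor of the amino acid and unfolded protein response, was lower (-0.38 ± 0.11). Foxo1, Foxo3 and Foxo4, known regulators of Bcl2l11, did not pass.

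Bcl2 is also counted among Hedgehog response genes in some tissues, and Birc3 among those of NF-kB. All 7 Hedgehog genes tested were higher (median 1.58), among them the targets Gli1 (1.58 ± 0.11) and Ptch1 (1.59 ± 0.08). Hhip, another target, averaged 1.99 CPM in the placode-enriched fraction, against 0.0195 CPM in the IFE fraction. Of 8 NF-kB genes, 5 were higher and 3 did not pass (median 1.21), among them Relb (1.70 ± 0.10), Tnfaip3 (2.76 ± 0.12), Nfkbia (1.24 ± 0.07) and Nfkb2 (1.29 ± 0.14). These lists were chosen with their values known and do not bear independently on Bcl2.

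**Figure D5:**
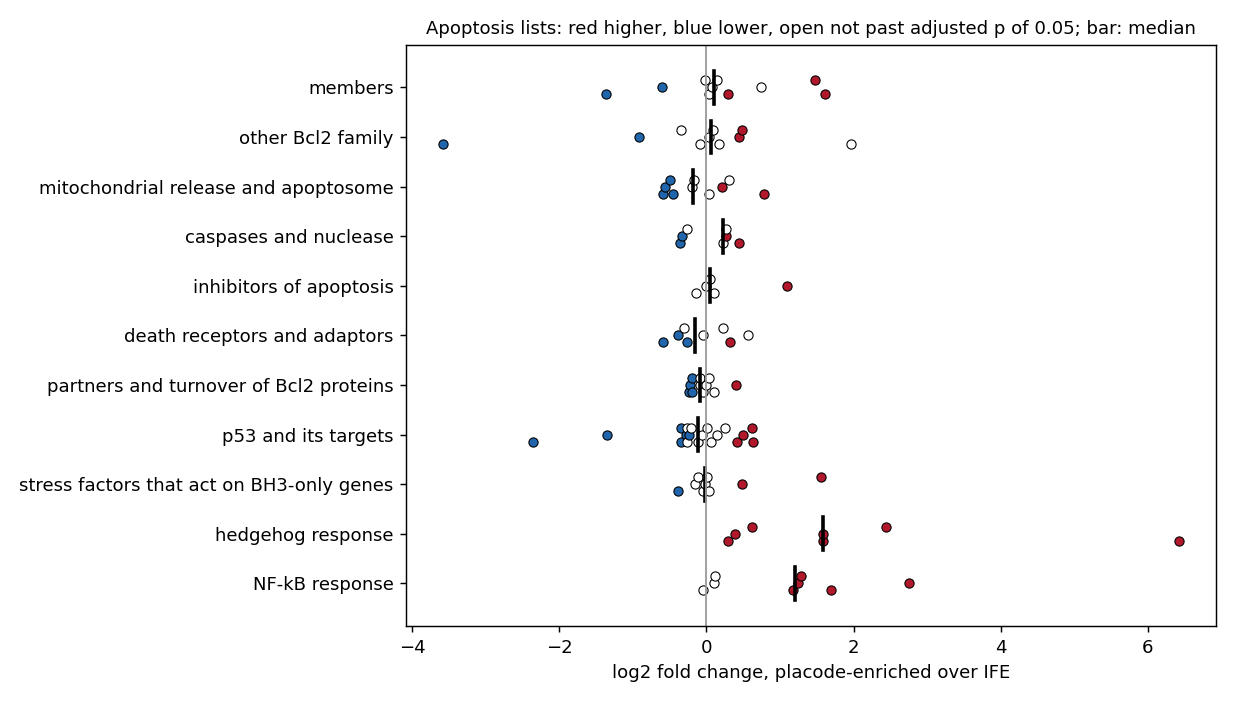
Log2 fold change, placode-enriched over IFE, of each tested gene in the members and in 10 lists of apoptosis and signalling genes, red where higher, blue where lower and open where the adjusted p was not under 0.05, with a bar at the median. The medians of the apoptosis lists lie between -0.18 and 0.22, those of the Hedgehog and NF-kB lists at 1.58 and 1.21.

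For the members that differed at least 2-fold, the genes most alike in pattern were sought by the root mean square difference of gene-centred log2 CPM over the 14 libraries. Nearest to Bcl2 were Cadm1 at 0.143, Sh3bp4 at 0.157 and Epb41l2 at 0.158, where the median gene stood at 0.875. Nearest to Bcl2l11 were Ctnnb1, the gene of beta-catenin, at 0.168, Mtmr10 at 0.170 and Alcam at 0.181. Nearest to Pmaip1 were Fabp5 at 0.177, Perp at 0.199 and Plau at 0.213. All 14 libraries carry the contrast of the fractions, so likeness here covers that contrast as well as the spread within a fraction.

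Other cell types are known to express Bcl2 or Bcl2l11, among them lymphocytes and melanocytes, and 3 marker sums moved with these genes. The summed levels of the immune, fibroblast and endothelial markers were each higher in the placode-enriched library of 7 of 7 pairs. Over the immune list, 7 of 8 markers were in the table, 3 were tested and 2 were higher, and the sum was 33.8 to 49.7 CPM in the placode-enriched fraction, against 1.71 to 7.52 CPM in the IFE fraction. Most of it was Cd74, at 31.6 to 47.0 CPM in the placode-enriched fraction, against 1.54 to 5.22 CPM in the IFE fraction, and Aif1 was higher by 2.53 ± 0.51 on the log2 scale. The general leukocyte gene Ptprc did not exceed 0.354 CPM in any placode-enriched or 0.421 CPM in any IFE library, and Tyrobp was at 0 in the 7 placode-enriched libraries.

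The 9 fibroblast markers summed to 478 to 714 CPM in the placode-enriched fraction, against 438 to 542 CPM in the IFE fraction, with 3 of 8 tested higher and 2 lower. The matrix gene Dcn carried most of the sum, at 498 ± 79.1 CPM in the placode-enriched fraction, against 258 ± 24.2 CPM in the IFE fraction. Dcn (0.94 ± 0.10), Col1a2 (1.25 ± 0.09) and Fbn1 (0.78 ± 0.08) were higher in 7 of 7 pairs without overlap. Vim (-1.17 ± 0.10) and Col1a1 (-2.49 ± 0.87) were lower, and Pdgfra and Twist2 stayed under 1 CPM in every library. The 6 endothelial markers summed to 1.33 to 3.82 CPM in the placode-enriched fraction, against 0.214 to 1.47 CPM in the IFE fraction. The 1 of them tested, Pecam1, was higher (2.15 ± 0.44; edgeR adjusted p = 0.00215). Cdh5 was at 0 in the 7 IFE libraries and did not exceed 0.118 CPM in any placode-enriched library. Kdr, Tie1 and Cldn5 had a median of 0 CPM in both fractions. The median of Tek was 0.422 CPM in the placode-enriched and 0.152 CPM in the IFE fraction. Of the melanoblast markers 8 were tested, and 8 were lower, opposite to Bcl2. The part of these cells in the member values was not tested.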

How the data were processed

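The authors deposited 1 table of raw counts, with a row for each Ensembl gene and a column for each of 14 libraries. The submitters' processing notes name HTSeq, STAR (version given as 1.5), MultiQC, FastQC, Trimmomatic and bcl2fastq (2.17.1.14), and the builds mm10 and GRCm38. Per the labels' protocols, libraries were made from total RNA with the Ovation SoLo kit. Sources used here do not give the strand setting, the annotation release or how duplicates were handled, so overlapping genes may share reads and amplified reads are not independent molecules.

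Symbols, coordinates and exon lengths came from GENCODE M21 (GRCm38), which matched 25949 of 26252 gene identifiers. Promoter sequences came from RefSeq (GRCm38.p6) and were searched for 9 members. Counts were tested with edgeR 4.0.16 (limma 3.58.1, R 4.3.3) after filterByExpr, which left 15382 genes, with TMM scaling, robust quasi-likelihood F tests and the pair as a block. The threshold was a Benjamini-Hochberg adjusted p under 0.05. Fold changes are on the log2 scale, placode-enriched over IFE (prior count 0.125), SEs are the unshrunk coefficient over the square root of F, and intervals are 1.96 SE to each side. CPM use TMM-scaled library sizes, and pair differences a prior count of 2. Tables and figures used Python 3.11.15, pandas 2.3.3, numpy 2.4.6 and matplotlib 3.10.9. The method was tested on simulated counts that had the same spread setting for every gene and no differences between pairs. That test therefore does not cover the pair block.

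The labels give the pairing: both libraries of a pair carry 1 title code, 7 pairs are named in the design, and littermates were pooled. Deviations from the fraction means correlated by -0.132 to 0.195 between libraries of a pair. No 2 libraries held identical counts. P-values reflect how these pools vary.

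All 10 members are named. From each list of apoptosis and signalling genes, up to 4 genes past the threshold with the smallest p are named, or the 1 with the smallest p; 1 gene that the rule gives is not reported here. Cell type markers are mostly given as counts and sums. Markers named singly, and other genes named for their role, such as Apaf1, Bad, Bcl2l2 and Mdm2, were chosen after their values were seen. Genes alike in pattern were sought for members past the threshold with an absolute log2 fold change of at least 1, among protein-coding genes other than numbered gene models. The members and lists were chosen with earlier results of these data known. Alternatives were no block, DESeq2 size factors, library size only, no filter, at least 1 CPM in 7 libraries, DESeq2 1.42.0, limma-voom, each pair left out, and the pairs with and without a 27-7 title code alone.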

Additional observations from a re-analysis of the deposited data

Results flagged for a closer look

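Bcl2l1 stood at 48.1 CPM in placode-enriched replicate 5, far from the other 6 placode-enriched libraries, the next of which was at 35.8 CPM. The gap was 0.714 of the group's range, above Dixon's critical value for 7 samples at 95%. Of 20 groups examined this was the 1 that stood out, and chance gives about 1 in 20. Without replicate 5 the log2 fold change of Bcl2l1 was 0.07 (edgeR adjusted p = 0.644), against 0.14 with all pairs.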

How the results depend on the processing

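Bcl2, Bcl2l11 and Pmaip1 kept their direction and passed under 16 of 16 alternatives, with log2 fold changes of 1.52 to 1.67, 1.40 to 1.55 and -1.41 to -1.30. Without the pair block 5 members and 4689 genes passed, and no member's call changed. Leaving out each pair gave 4 to 6 members and 3953 to 5229 genes past the threshold.

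The 3 pairs with 27-7 codes and the 4 other pairs, each alone, hold fewer samples. They gave 2331 and 3087 genes, 3 members each and 2 further family genes each. Counts were 2 mitochondrial, 0 caspase, 0 death receptor, 1 partner and 5 p53 genes in the 27-7 pairs. In the other pairs they were 5 mitochondrial, 2 caspase, 3 death receptor, 1 partner and 9 p53 genes. Bid (-0.75 and -0.48) and Bmf (0.36 and 0.24) missed the threshold in both. Without single pairs, Bmf ranged from 0.25 to 0.36 (edgeR adjusted p 0.0149 to 0.0921) and Bbc3 from 0.59 to 0.95 (0.0145 to 0.156). Bbc3 passed at 0.77 with library size only, 0.75 with the 1 CPM filter, 0.75 with DESeq2 and 0.71 with limma-voom, and the cause was not tested.

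Partner genes numbered 3 with DESeq2 size factors, 2 with library size only, 1 without a filter, 3 with the 1 CPM filter and 1 to 5 without single pairs, against 5, and caspase genes 2 to 4 without single pairs. Signs near 0 turned without a call: Bak1 was at 0.02 with library size only, 0.16 in the 27-7 pairs and -0.12 to 0.08 without single pairs, Mcl1 at -0.0028 in the 27-7 pairs and -0.02 to 0.07 without single pairs, and Bax at -0.01 in the other pairs. The lowest library held 43 counts of Bbc3, and which of depth and spread between pools limits it was not tested.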

Other observations

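Pmaip1 was compared between libraries whose title codes start with 27-7 and the others. It stood at 4.04 to 4.68 CPM in the 3 placode-enriched libraries with this code, against 5.50 to 6.71 CPM in the 4 others, and at 9.93 to 13.6 CPM in the 3 IFE libraries with this code, against 13.3 to 17.4 CPM in the 4 others. Only the placode-enriched ranges did not overlap. Over all genes tested, ranges with and without this code did not overlap for 9.19% in the placode-enriched and 6.49% in the IFE fraction. This split was looked at after the values were seen and was not tested, and the labels do not say what the code stands for. The difference between the fractions was alike in both sets, at a log2 fold change of -1.34 in the 27-7 pairs and -1.39 in the 4 other pairs.

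Immediate early genes, which respond within minutes to handling of cells, went both ways between the fractions, with 4 of 9 tested higher and 2 lower. Fos was lower (-1.72 ± 0.13) and Ier3, a stress-induced survival gene, higher (1.39 ± 0.17). Their summed level was 116 to 206 CPM in placode-enriched and 135 to 183 CPM in IFE libraries.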
